A study of Mus musculus with 24 samples.

Results

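The Bcl2 family survival genes followed here were the 9 genes Bcl2, Bcl2l1, Mcl1, Bcl2a1b, Bcl2l11, Bmf, Bid, Bad and Bak1, taken as the rows of both expression tables whose symbol equalled one of these names, among 55487 genes listed in each table. They were measured by QuantSeq, a method that sequences the 3′ ends of polyadenylated RNA, in 24 bulk libraries of Cas9-LP cells. These are lymphoid progenitor (LP) lines grown from fetal liver progenitors of mice that lack Ebf1 and carry Cas9 at Rosa26, so every group, control included, came from Ebf1-deficient, Cas9-expressing cells. Ebf1 3′ tags were still read in each of the 8 groups, at group means of 161 to 333.7 CPM (reads scaled to the same total in every library), and they do not check the loss of the protein. All cells were grown with SCF, Flt3L and IL-7 on mitomycin C-treated stroma. They were sorted as hNGFR+CD45+ cells 5 days after retroviral transfer of the sgRNAs. Plasmids against the same gene were pooled, so each culture in which a mouse gene was targeted was a mixture of edits. The control sgRNAs target luciferase. Experiment 1 held LPs on OP9 and Phase 1 cells, which are Notch-stimulated early T progenitors on OP9-DLL4, each with control (sgControl) or Cbfb (sgCbfb) sgRNAs; experiment 2 held LPs on OP9 with sgControl, sgCbfb, sgCTCF or sgMed12. Each of the 8 groups had 3 libraries. The study describes its replicates as biological and independent, and the labels do not say whether they were separate lines, animals or cultures, so p-values measure the spread between these libraries.

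The family sets the threshold for mitochondrial apoptosis. Pro-survival proteins (Bcl2, Bcl2l1 or Bcl-xL, Mcl1 and Bcl2a1 or A1) hold the effectors Bak1 and Bax in check, while BH3-only proteins (Bcl2l11 or Bim, Bmf, Bid, Bad) bind the pro-survival proteins or activate the effectors. In lymphoid progenitors, IL-7 receptor signalling is known to sustain Bcl2 and Mcl1 and to restrain Bim. Cbfb is the shared partner of the RUNX transcription factors, CTCF organises chromatin loops, and Med12 belongs to the kinase module of Mediator.

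Each library held between 1363263 and 1743319 reads on genes in experiment 1 and between 3354483 and 4326782 in experiment 2, so 3 reads corresponded to 1.72 to 2.20 CPM and to 0.693 to 0.894 CPM, respectively. The 7 Phase 1 T progenitor markers summed to 841 to 1009 CPM in Phase 1 sgControl libraries and to 37.8 to 55.5 CPM in LP sgControl libraries of experiment 1, and the labelled stages were called by those names on that basis. Cbfb RNA was lower with sgCbfb in LPs (40.2 against 86.5 CPM and 48.4 against 114 CPM; limma, adjusted p = 0.0055 and 4.3e-06), and was 53.9 against 66.5 CPM in Phase 1 (adjusted p = 0.59). Ctcf was 306 CPM with sgCTCF against 391 CPM (adjusted p = 0.021), and Med12 was 7.01 CPM with sgMed12 against 5.14 CPM (adjusted p = 0.66). A 3′ tag lies outside a Cas9 cut in the coding sequence, so these levels do not check whether the gene was disrupted. The study immunoblotted Cbfβ, CTCF and Med12 in sgRNA-transduced LPs, earlier after transfer than these libraries, and reports loss of the CBFβ protein. In bulk RNA, fewer cells with a transcript and less of it per cell cannot be told apart.

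Sequences upstream of the 4 members that passed the test in a comparison with sgControl at the same stage are shown because Bcl2l11 and Bmf rose together with sgCTCF, whereas Bcl2 and Bcl2l1 moved in opposite directions with sgCbfb. Each is the 250 bases before the 5′-most RefSeq start (build GRCm38.p6), written 5′ to 3′ along the gene, and for Bmf the window of its second start is added because it held the most RUNX matches. Capitals mark the RUNX letters TGTGGT or TGCGGT and the CTCF core letters AGGGGGC or AGGTGGC, on either strand.
Bcl2, chr1:106714291-106714540, minus strand: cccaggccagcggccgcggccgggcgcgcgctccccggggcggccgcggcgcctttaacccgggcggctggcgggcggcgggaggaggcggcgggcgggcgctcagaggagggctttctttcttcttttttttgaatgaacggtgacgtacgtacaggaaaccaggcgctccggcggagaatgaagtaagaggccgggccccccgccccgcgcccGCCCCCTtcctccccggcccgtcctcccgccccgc
Bcl2l1, chr2:152831729-152831978, minus strand: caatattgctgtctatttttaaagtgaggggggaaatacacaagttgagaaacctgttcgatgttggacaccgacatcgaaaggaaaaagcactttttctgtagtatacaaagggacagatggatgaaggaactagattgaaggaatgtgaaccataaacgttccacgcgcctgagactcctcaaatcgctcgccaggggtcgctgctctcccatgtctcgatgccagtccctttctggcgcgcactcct
Bcl2l11, chr2:128125788-128126037, plus strand: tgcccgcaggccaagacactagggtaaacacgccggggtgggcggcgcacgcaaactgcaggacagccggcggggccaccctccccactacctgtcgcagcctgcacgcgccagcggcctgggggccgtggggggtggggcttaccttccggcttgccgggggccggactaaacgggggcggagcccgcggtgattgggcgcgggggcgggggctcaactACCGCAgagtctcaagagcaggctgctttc
Bmf, first start, chr2:118549687-118549936, minus strand: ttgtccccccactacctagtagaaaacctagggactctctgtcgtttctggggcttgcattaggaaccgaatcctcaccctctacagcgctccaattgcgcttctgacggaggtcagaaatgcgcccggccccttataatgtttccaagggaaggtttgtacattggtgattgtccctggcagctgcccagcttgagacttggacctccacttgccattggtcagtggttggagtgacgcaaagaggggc
Bmf, second start, chr2:118547600-118547849, minus strand: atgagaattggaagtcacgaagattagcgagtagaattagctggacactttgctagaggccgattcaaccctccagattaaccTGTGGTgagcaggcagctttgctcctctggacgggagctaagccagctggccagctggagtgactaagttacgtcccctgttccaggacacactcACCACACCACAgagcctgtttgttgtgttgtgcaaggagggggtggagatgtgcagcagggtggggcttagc
The Bcl2 and Bcl2l11 windows were rich in G and C (74.8% and 72.0%), and that of Bcl2l1 was 47.6% G and C. A RUNX match lay 30 bases before the first Bcl2l11 start, and the window of its second start, not printed, held a RUNX match 211 bases and a CTCF core match 234 bases before that start. For Bmf, 3 RUNX matches lay 167, 72 and 67 bases before the second Bmf start, the nearer 2 of which overlap. The Bcl2 window held a CTCF core match 35 bases before its start and no RUNX match. The windows of the 3 Bcl2l1 starts held neither, and those of the 3 Bmf starts held no CTCF core match. Of the 15 RefSeq starts of the 9 members, 4 windows held a RUNX match and 4 held the RBPJ letters TGGGAA, against 18.6% and 21.6% of all 32851 mouse windows. A CTCF core match was in 2 of the 15, against 14.0%. A match is a description of letters, not a bound site.

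Bcl2 (chromosome 1, 106538178 to 106714274, minus strand) was read in every library at 316 to 669.9 CPM, from at least 503 reads. In LPs of experiment 1 it was 669.9, 588 and 556 CPM with sgControl (604.8 ± 58.6, SD, n = 3) and 639.7, 636 and 525 CPM with sgCbfb (600.4 ± 65.1). The 2 groups overlapped. In Phase 1 it was 559, 519 and 406 CPM with sgControl (495 ± 79.6) and 333, 316 and 335 CPM with sgCbfb (328 ± 10.2), and each sgCbfb library lay below every sgControl library. In LPs of experiment 2 it was 579, 490.3 and 589 CPM with sgControl (553 ± 54.2) and 349, 403 and 404 CPM with sgCbfb (385 ± 31.4), again without overlap. With sgCTCF it was 462, 464 and 461 CPM, below each sgControl library by a small margin. With sgMed12 it was 648, 502 and 647 CPM, which spanned the control values.

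Bcl2l1 (chromosome 2, 152780668 to 152831728, minus strand), whose product Bcl-xL protects the outer mitochondrial membrane as Bcl2 does, showed the opposite order. In Phase 1 it was 11.999, 17.4 and 18.3 CPM with sgControl (17 to 27 reads) and 38.9, 37.1 and 40.7 CPM with sgCbfb (59 to 69 reads), a gap larger than the whole spread of either group. Values in LPs of experiment 2 were 17.9, 25.4 and 23.4 CPM with sgControl and 35.5, 46.7 and 38.0 CPM with sgCbfb. The sgCbfb libraries were higher in both sets without overlap. The LPs of experiment 1 held 22.4, 26.6 and 33.4 CPM with sgControl and 28.9, 44.2 and 25.7 CPM with sgCbfb, and there the groups overlapped. It was 26.3, 31.2 and 29.8 CPM with sgCTCF and 29.1, 20.6 and 23.3 CPM with sgMed12. A lack of overlap was not particular to members that passed the test. It also held, for example, for Mcl1 in Phase 1 with sgCbfb against sgControl (176 to 189 against 145 to 165 CPM). Bid with sgCbfb in LPs of experiment 1 and Bad with sgMed12 did not overlap the controls either, and did not pass. The share of all genes without overlap was not taken.

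Mcl1 (chromosome 3, 95658788 to 95663176, plus strand), a short-lived pro-survival protein that lymphocytes require, had the narrowest relative range of the tested members over all libraries: its 24 values lay between 145 and 198 CPM, and its highest group mean exceeded its lowest by 1.17-fold in experiment 1 and 1.14-fold in experiment 2. Bcl2a1b (chromosome 9, 89199209 to 89207827, plus strand) was at or near 0. It had no read in any of the 12 LP libraries with sgControl or sgCbfb, and at most 5 reads elsewhere, in 8 libraries. It fell under the filter on low values and was not tested, and 43.5% of the 75-base windows of its transcripts also occur in its copies Bcl2a1a or Bcl2a1d, so its few reads are uncertain. Of its 817 exon bases, 401 are shared with Gm29094 on the same strand, which had no read in any library. How reads on bases shared by 2 genes were counted is not given in the sources used here.

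**Figure D1:**
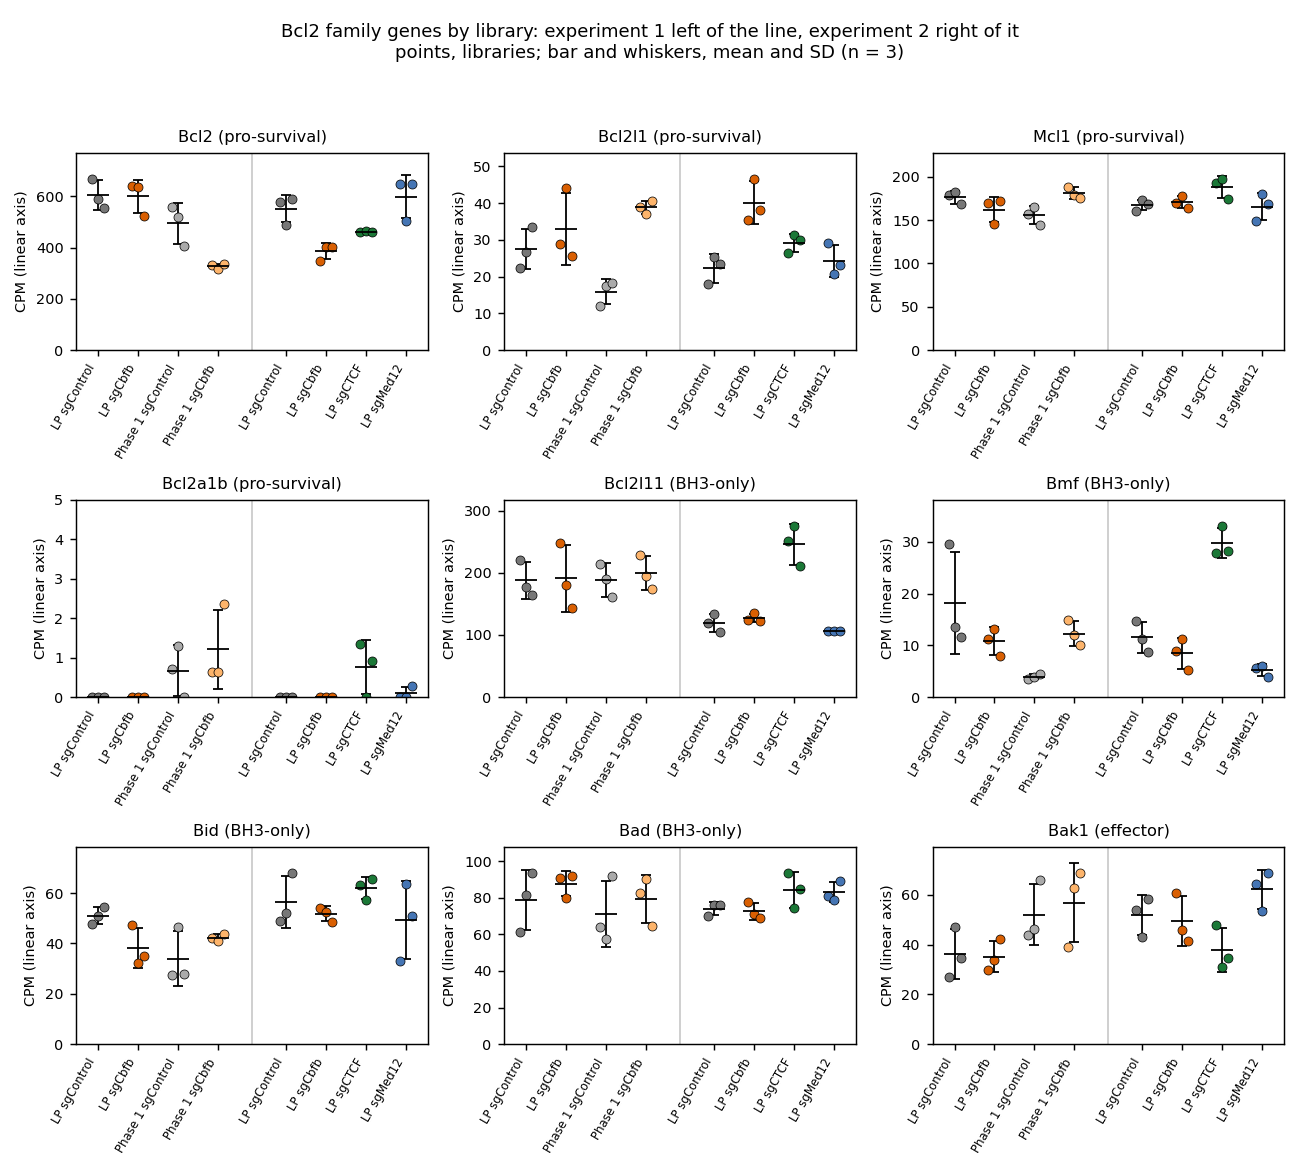
Level of the 9 members in CPM (linear axes from 0), with 1 point for each library and the mean and SD of each group (n = 3), experiment 1 left of the grey line and experiment 2 right of it. Bcl2 is lowest and Bcl2l1 high with sgCbfb in Phase 1 and in LPs of experiment 2, and Bcl2l11 and Bmf are highest with sgCTCF within experiment 2.

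Bcl2l11 (chromosome 2, 128126038 to 128162547, plus strand) encodes Bim, which binds all pro-survival members and is a main trigger of death on cytokine loss in lymphocytes. In experiment 2 it was 119, 134 and 104 CPM with sgControl (119 ± 14.8) and 251, 276 and 211 CPM with sgCTCF (246 ± 32.9). The lowest sgCTCF library lay well above the highest control. It was 125, 135 and 122.9 CPM with sgCbfb and 107, 107 and 106 CPM with sgMed12. In experiment 1 its 12 values lay between 143 and 248 CPM, and the 4 group means differed by at most 1.06-fold.

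Bmf (chromosome 2, 118528757 to 118549687, minus strand), a BH3-only protein tied to the cytoskeleton, was read at a lower level, 3.53 to 33.1 CPM. In experiment 2 it was 14.8, 11.2 and 8.77 CPM with sgControl, 27.9, 33.1 and 28.2 CPM with sgCTCF and 5.65, 6.10 and 3.97 CPM with sgMed12 (14 to 21 reads). The sgCTCF libraries were above, and the sgMed12 libraries below, every control. It was 8.94, 11.3 and 5.29 CPM with sgCbfb, overlapping the control. In experiment 1 it was 29.5, 13.6 and 11.6 CPM in LPs with sgControl and 11.3, 13.2 and 7.85 CPM in LPs with sgCbfb. In Phase 1 it was 3.53, 3.87 and 4.401 CPM with sgControl (5 to 6 reads) and 14.9, 11.9 and 10.0 CPM with sgCbfb. The first LP sgControl library stood apart from the others of its group, and the Phase 1 sgControl libraries were lowest.

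Among the remaining members, the highest group mean exceeded the lowest by 1.504-fold and 1.26-fold for Bid (experiments 1 and 2), 1.23-fold and 1.16-fold for Bad, and 1.62-fold and 1.65-fold for Bak1, beside 1.85-fold and 1.56-fold for Bcl2. Bid (chromosome 6, 120891930 to 120916853, minus strand), which caspase-8 cleaves to link death receptors to mitochondria, ranged from 27.5 to 68.2 CPM. Bad (chromosome 19, 6941861 to 6951899, plus strand), which Akt phosphorylation inactivates, ranged from 57.4 to 93.8 CPM. Bak1 (chromosome 17, 27019810 to 27029009, minus strand), the pore-forming effector, ranged from 27.1 to 68.95 CPM. Exons of these 3 genes overlap exons of opposite-strand genes (Bcl2l13, Gpr137 and Ggnbp1), and exons of Bcl2 overlap those of D630008O14Rik, which had no read in any library. Whether strand was used in counting is not given in the sources used here.

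The comparison of sgCbfb with sgControl addressed what RUNX complexes contribute at each stage. In Phase 1, Bcl2 fell and Bcl2l1 rose. The log2 fold change was -0.58 for Bcl2 (SE 0.125, limma adjusted p = 0.0052), a level 0.663 times that of the control, and 1.26 for Bcl2l1 (SE 0.281, adjusted p = 0.0069), 2.44 times the control. These 2 of the 8 tested members passed (adjusted p under 0.05 over all genes), against 5.97% of 13239 genes, and Bcl2l1 was the only one that also met the study's fold and level thresholds (a ratio of means over 2-fold and a mean over 10 CPM), against 3.52%. Bmf was 3.12 times the control, with a log2 fold change of 1.42 (95% interval 0.52 to 2.31) that missed the threshold (adjusted p = 0.057). With only the 2 Phase 1 groups in the fit, the adjusted p of Bcl2 was 0.052.

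In LPs of experiment 2 the same 2 members passed in the same directions, against 12.5% of 13177 genes. Bcl2 had a log2 fold change of -0.52 (SE 0.108, adjusted p = 0.0012), and Bcl2l1 of 0.83 (SE 0.181, adjusted p = 0.0022). Neither met the fold and level thresholds, which 4.33% of genes met. Bcl2l11 changed by 0.11 (95% interval -0.13 to 0.34) and Mcl1 by 0.03 (-0.18 to 0.24). In LPs of experiment 1 none of the 8 passed by limma, none by edgeR and none had an unadjusted p under 0.05, against 2.85% of genes past the adjusted threshold and 1.69% past all 3. The Bcl2 interval there was -0.27 to 0.25, which did not overlap that of experiment 2 (-0.74 to -0.30), while the Bcl2l1 intervals overlapped (-0.35 to 0.82 and 0.45 to 1.20). The 2 tables were normalised separately and the difference between experiments was not tested.

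Myeloid markers moved with sgCbfb. The 9 summed to 500.2 to 591 CPM in LPs of experiment 1 against 58.4 to 95.02 CPM with sgControl, to 357 to 392 against 52.2 to 64.6 CPM in Phase 1, and to 723 to 815 against 64.4 to 72.3 CPM in LPs of experiment 2. Of those tested, 3 of 7, 3 of 7 and 5 of 8 passed higher, in that order, and none lower. Most of the sum was Mrc1 (221 against 4.86 CPM in LPs of experiment 1, 209.5 against 1.62 CPM in Phase 1 and 471.6 against 6.23 CPM in LPs of experiment 2) and F13a1 (189.6 against 11.2 CPM, 80.9 against 2.76 CPM and 194 against 6.71 CPM), with Fcgr3 the third that passed in all 3. Csf1r was at most 4.57 CPM in any of these group means, and in Phase 1 Cd68 was 3.52 against 8.33 CPM and Itgam 22.15 against 26.1 CPM, neither of which passed. Elane was at 0 in all sgCbfb libraries of both experiments and Lyz2 had at most 3 reads in those of experiment 1, and the part of the markers' rise in the changes of Bcl2 and Bcl2l1 was not tested. The T progenitor markers summed to 322 to 349 CPM in Phase 1 with sgCbfb, below the control. Of the 7, 4 passed lower and 0 higher, while Hes1 (95.7 against 85.9 CPM) and Notch3 (27.6 against 20.0 CPM) were not lower.

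Phase 1 against LP asked what Notch stimulation changed. With sgControl, Bmf fell by 1.85 on the log2 scale (SE 0.432, adjusted p = 0.0095), to 0.216 times its LP level, and was the 1 member that passed, against 6.48% of genes, also past the fold and level thresholds, as 3.39% were. Without the first LP sgControl library, its highest value, the adjusted p was 0.089, and with only these 2 groups in the fit it was 0.087. Bcl2l1 was 0.579 times its LP level (adjusted p = 0.12) and Bid 0.665 times (adjusted p = 0.14). Bcl2 was 0.818 times its LP level (log2 fold change -0.30, 95% interval -0.56 to -0.04, adjusted p = 0.18). With sgCbfb, Bcl2 fell by 0.87 (SE 0.125, adjusted p = 0.00018), to 0.546 times its LP level, and alone passed, against 2.24% of genes. It did not meet the fold and level thresholds, which 1.19% met. Bak1 had a log2 fold change of 0.65 (95% interval 0.11 to 1.20, adjusted p = 0.28).

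The test of the difference between stages in the sgCbfb effect passed for none of the 8 members by limma (1.27% of genes passed) or by edgeR. Of them, 4 had an unadjusted p under 0.05: Bcl2 (-0.57, adjusted p = 0.16), Bcl2l1 (1.03, adjusted p = 0.32), Bmf (2.04, adjusted p = 0.14) and Bid (0.78, adjusted p = 0.40). So the changes in Phase 1 were not shown to differ from those in LPs. Without the Phase 1 sgControl library numbered 3, which had the lowest Bcl2 of its group, Bcl2 passed (adjusted p = 0.0033).

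**Figure D2:**
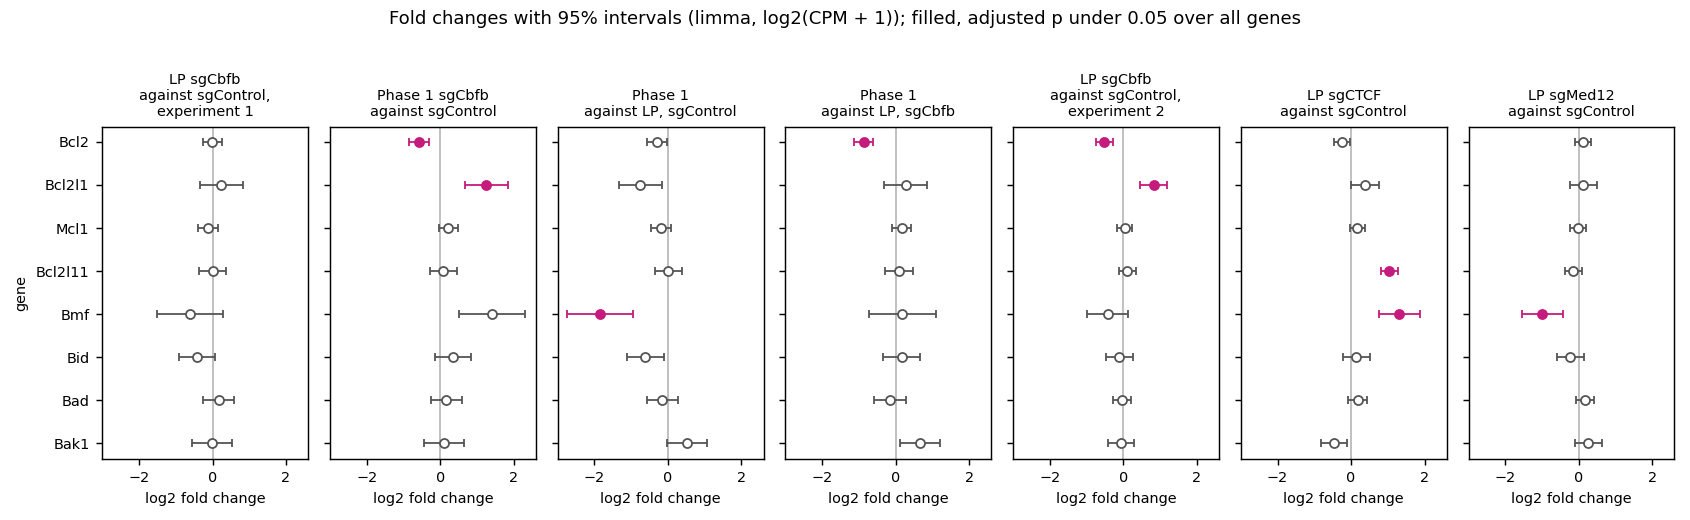
Log2 fold change of the 8 tested members (limma, log2(CPM + 1)) with 95% intervals in 7 comparisons, filled where the adjusted p was under 0.05. Bcl2 lies below 0 and Bcl2l1 above 0 with sgCbfb in Phase 1 and in LPs of experiment 2, Bcl2l11 and Bmf lie above 0 with sgCTCF, and Bmf lies below 0 with sgMed12 and in Phase 1 sgControl.

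With sgCTCF, 2 BH3-only genes rose. Bcl2l11 had a log2 fold change of 1.04 (SE 0.115, adjusted p = 1.3e-06), 2.07 times the control, and Bmf of 1.31 (SE 0.27, adjusted p = 0.0019), 2.57 times the control. These 2 of 8 passed, against 10.3% of genes, and both met the fold and level thresholds, against 2.43%. Both also passed in all 21 alternatives run. Bid (0.14, interval -0.22 to 0.50) and Bad (0.18, -0.07 to 0.42) did not pass, nor did Bak1 (-0.46, -0.82 to -0.11, adjusted p = 0.093) or Bcl2 (-0.25, -0.47 to -0.03, adjusted p = 0.15). Without the second sgMed12 library, which enters only the shared spread, Bcl2 and Bak1 passed too.

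With sgMed12, Bmf fell by 1.001 on the log2 scale (SE 0.27, adjusted p = 0.028), to 0.452 times the control. It was the 1 member that passed, against 7.22% of genes, and met the fold and level thresholds, against 1.03%. The call was lost with no filter on low values (adjusted p = 0.076), with only these 2 groups in the fit (0.15), and without the first (0.13) or second (0.08) control library or the first (0.059) or last (0.13) sgMed12 library. Reads on mitochondrial genes made up 13.66%, 8.44% and 11.18% of the sgMed12 libraries and 7.50% to 8.03% of the controls. With those genes left out of the total, Bmf fell by 0.97 (adjusted p = 0.036).

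The 3 perturbations of experiment 2 were also set against each other. Bcl2l11 and Bmf were higher with sgCTCF than with sgCbfb (0.93 and 1.74 on the log2 scale, adjusted p = 8.4e-07 and 2.3e-05), the 2 members that passed, against 22.3% of genes. With sgMed12 against sgCbfb, Bcl2 was higher (0.63, adjusted p = 0.00013) and Bcl2l1 lower (-0.70, adjusted p = 0.008), against 16.8%. The Bcl2l1 call was lost without the second sgCbfb library, the highest of its group (adjusted p = 0.061). With sgMed12 against sgCTCF, 4 members passed, against 20.0%: Bcl2l11 (-1.19) and Bmf (-2.31) were lower, and Bak1 (0.72, adjusted p = 0.0043) and Bcl2 (0.36, adjusted p = 0.019) higher. Bcl2 lost that call in 7 of 21 alternatives.

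Over the 11 comparisons, 17 of 88 member tests passed (19.3%), beside 9.8% of all gene tests in the same comparisons. Bcl2 and Bmf passed in 5 comparisons each, Bcl2l1 and Bcl2l11 in 3 each and Bak1 in 1. Mcl1, Bid and Bad passed in none. The comparisons share control libraries, so they are not independent. The members were chosen with earlier results of these data known, and the share over all genes takes in genes down to 1 CPM in 3 libraries. The difference between these shares is therefore no evidence of an excess in the family.

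**Figure D3:**
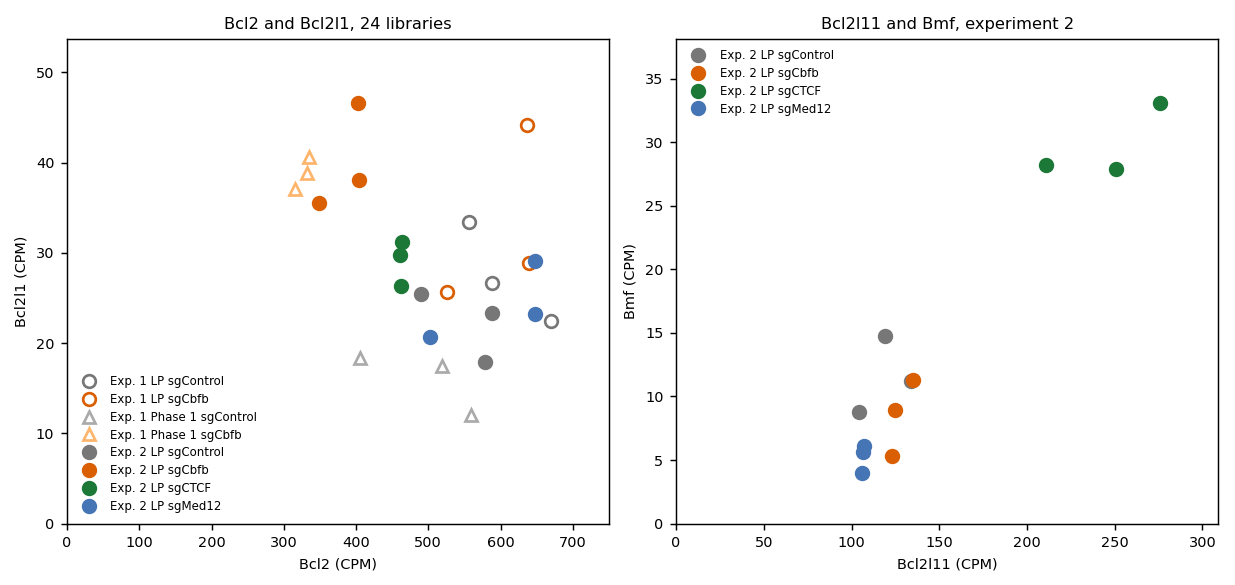
Level of Bcl2l1 against Bcl2 in all 24 libraries (left) and of Bmf against Bcl2l11 in the 12 libraries of experiment 2 (right), in CPM, with 1 marker for each library, open for experiment 1 and filled for experiment 2, triangles for Phase 1. The Phase 1 sgCbfb and experiment 2 sgCbfb libraries lie at the upper left of the first panel, and the sgCTCF libraries stand alone at the upper right of the second.

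The ratio of Bcl2 to Bcl2l1 reads within a library is free of the library total. It was 8.23 to 8.55 in Phase 1 with sgCbfb against 22.1 to 46.6 with sgControl, and 8.64 to 10.6 in experiment 2 LPs with sgCbfb against 19.3 to 32.3 with sgControl. Neither pair of groups overlapped. In experiment 1 LPs it was 14.4 to 22.1 with sgCbfb and 16.7 to 29.9 with sgControl. The summed CPM of the 4 BH3-only members over that of the 4 pro-survival members, in LPs of experiment 2, was 0.584 to 0.638 with sgCTCF, 0.329 to 0.397 with sgControl, 0.405 to 0.479 with sgCbfb and 0.274 to 0.364 with sgMed12. In LPs of experiment 1 it was 0.37 to 0.475 with sgCbfb and 0.406 to 0.427 with sgControl, which overlapped, and in Phase 1 it was 0.529 to 0.655 with sgCbfb and 0.424 to 0.501 with sgControl. These ratios combine the values above and were not tested. Bcl2 alone made up 59.3% to 78.5% of the pro-survival sum, and Bcl2l11 40.5% to 69.2% of the BH3-only sum. The BH3-only sums overlapped between sgCbfb and sgControl in Phase 1 (292.9 to 367.6 and 284.6 to 309.2 CPM). They also overlapped in LPs of experiment 2 (245.6 to 270.3 and 252.9 to 273.5 CPM). Each gene is captured with its own efficiency, so a ratio says how libraries differ and not how much of each protein is present.

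**Figure D4:**
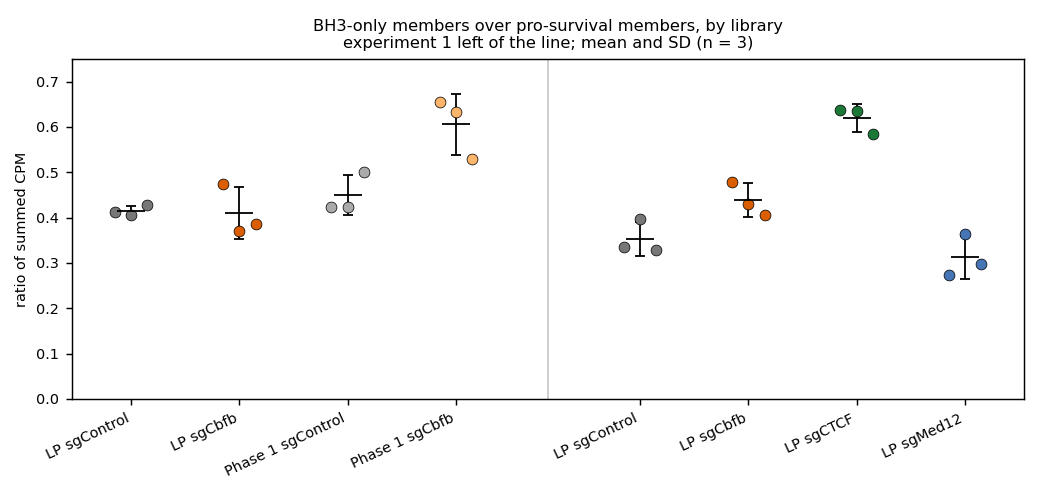
Summed CPM of the BH3-only members divided by that of the pro-survival members, with 1 point for each library and the mean and SD (n = 3), experiment 1 left of the line. The sgCTCF libraries (0.584 to 0.638) lie above the other LPs of experiment 2, and Phase 1 sgCbfb (0.529 to 0.655) above the other groups of experiment 1.

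Among other Bcl2 family genes (17 listed, 9 tested in experiment 1 and 10 in experiment 2), 3 of 9 passed in Phase 1 with sgCbfb, against 5.97% of all genes: the BH3-only genes Bbc3 (Puma) and Pmaip1 (Noxa) rose and Bcl2l14 fell. Bbc3 was 21.9 against 9.38 CPM (log2 fold change 1.13, adjusted p = 0.023) and Pmaip1 54.2 against 16.1 CPM (1.72, adjusted p = 9e-05). The sgCbfb effect on Pmaip1 differed between stages (interaction 1.65 on the log2 scale, adjusted p = 0.016), and that on Bbc3 did not pass (1.17, adjusted p = 0.27). Bcl2l14, a family member of uncertain role, was 0 to 2.36 CPM there against 10.3 to 14.1 CPM. Between stages with sgControl, a comparison that shares those Phase 1 sgControl libraries, Bbc3 and Pmaip1 were lower in Phase 1 (-1.83 and -1.10) and Bcl2l14 was higher, from 0 to 0.59 CPM in LPs. None of the list passed by limma or by edgeR with sgCbfb in either LP experiment, or between stages with sgCbfb, where 0, 2 and 2 had an unadjusted p under 0.05. By limma, 2.85%, 12.5% and 2.24% of all genes passed there, so a count of 0 among 9 or 10 genes is near these shares. With sgCTCF, 2 of 10 passed, against 10.3% of all genes: Bbc3 was higher, and Bnip3, a mitophagy receptor, was lower (36.9 against 121 CPM, adjusted p = 9.8e-06). With sgMed12, 3 of 10 passed, against 7.22%: Bnip3 (34.5 CPM) and Bnip3l were lower, and Bax, the second effector, was higher (86.3 ± 29.6 against 40.7 ± 10.1 CPM, adjusted p = 0.0064).

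Of 20 genes of the apoptosis machinery, none passed by limma or by edgeR in experiment 1 with sgCbfb against sgControl, where 2 (LPs) and 0 (Phase 1) had an unadjusted p under 0.05. None passed between stages either, by limma or by edgeR, where 3 (sgControl) and 2 (sgCbfb) had an unadjusted p under 0.05. Over all genes, limma passed 2.85% (LPs) and 5.97% (Phase 1) with sgCbfb, and 6.48% (sgControl) and 2.24% (sgCbfb) between stages. With 20 genes, a count of 0 is near these shares. In experiment 2, 2 of 20 passed with each sgRNA, against 12.5% (sgCbfb), 10.3% (sgCTCF) and 7.22% (sgMed12) of all genes, so these counts were near the background. By edgeR, 2, 2 and 1 passed. With sgCbfb, Casp8, the initiator caspase that cleaves Bid, was higher (110.5 against 78.5 CPM, adjusted p = 0.02) and Casp6 was lower (23.8 against 39.6 CPM, adjusted p = 0.0057). With sgCTCF, Diablo, a mitochondrial protein that relieves inhibitor of apoptosis proteins when released, was higher (45.7 against 31.5 CPM, adjusted p = 0.028), and the mitochondrial protease gene Htra2 was lower (29.6 against 47.8 CPM, adjusted p = 0.0075). With sgMed12, the outer membrane channel gene Vdac2 (179.6 against 256.6 CPM, adjusted p = 0.025) and Parp1 (295.6 against 397.8 CPM, adjusted p = 0.012) were lower. None of these 6 genes reached the fold threshold. The median log2 fold change of the list was 0.05 with sgCbfb, -0.09 with sgCTCF and -0.16 with sgMed12, beside -0.01, -0.02 and -0.02 over all genes.

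Of 16 upstream regulators, 8 passed with sgCbfb in experiment 2 (5 higher, 3 lower), 7 with sgCTCF (3 higher, 4 lower) and 1, Flt3, with sgMed12, against 12.5%, 10.3% and 7.22% of all genes. Foxo1, which encodes a transcription factor known to activate Bcl2l11, was 25.7 CPM with sgCTCF, 14.5 CPM with sgCbfb and 3.23 CPM with sgMed12 against 4.77 CPM with sgControl, and passed with the first 2 (adjusted p = 4.7e-06 and 0.00047). Bcl2l11 passed with sgCTCF and did not pass with sgCbfb or sgMed12. Foxo3, of the same list, passed higher with sgCbfb in LPs of both experiments. Foxo3 did not pass with sgCTCF, and it was lower with sgCTCF than with sgCbfb. The part of Foxo1 or Foxo3 in the change of Bcl2l11 was not tested. Myc was lower with sgCTCF (15.7 against 36.8 CPM, adjusted p = 0.00039). In experiment 1, 3 passed with sgCbfb in LPs (against 2.85% of all genes), all higher, with Kit at 97.1 against 30.2 CPM (adjusted p = 5e-05), and 2 passed in Phase 1 (against 5.97%; edgeR passed 4), where Flt3 was higher (98.5 against 36.1 CPM, adjusted p = 0.00098) and Myb lower. Between stages with sgControl, 5 passed (against 6.48%): Kit, Myb and Jak1 were higher in Phase 1 and Il7r and Flt3 lower. With sgCbfb, 3 passed (against 2.24%), as Il7r, Myb and Flt3 were lower. Il7r, the receptor upstream of Bcl2, was 100.6 CPM with sgCbfb against 165 CPM in experiment 2, and 145 against 156 CPM in Phase 1, where it did not pass. Its part in the change of Bcl2 was not tested.

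**Figure D5:**
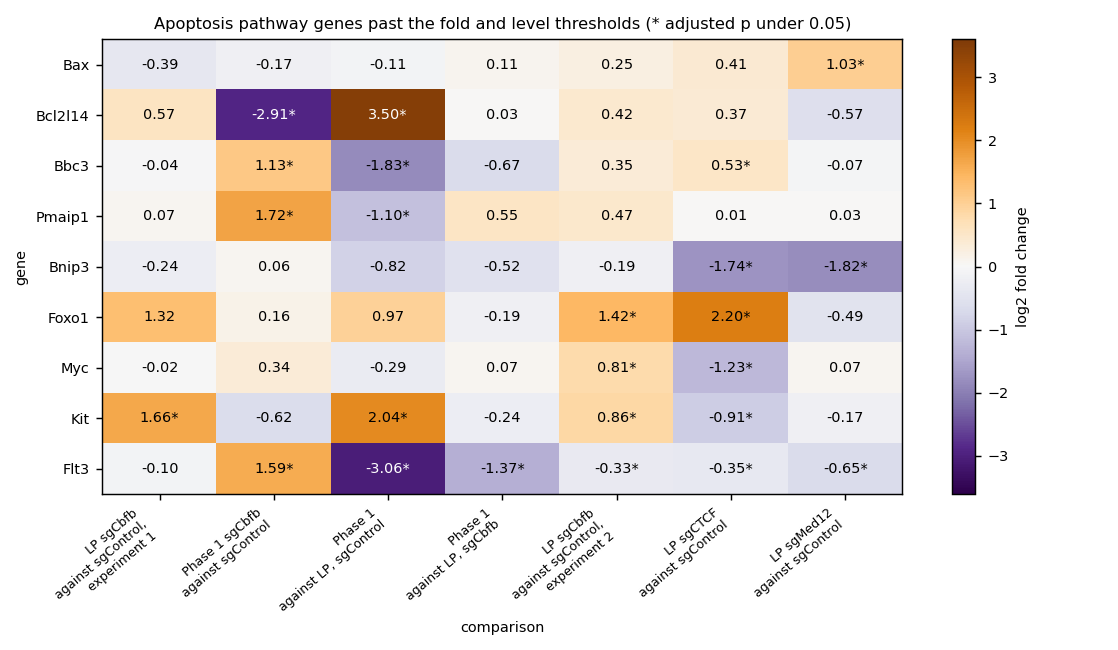
Log2 fold change (colour and printed value, limma on log2(CPM + 1)) of 9 other apoptosis pathway genes that met the adjusted p, fold and level thresholds in at least 1 of the 7 comparisons shown, with an asterisk where the adjusted p was under 0.05. Bbc3 and Pmaip1 are above 0 in the second column and below 0 in the third, which share the Phase 1 sgControl libraries, and Foxo1 is highest with sgCTCF.

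Over all 24 libraries, each taken relative to the LP sgControl mean of its experiment, the genes most like each of the 4 members among 7986 genes with a mean over 10 CPM were as follows. For Bmf they were Psap (Pearson r = 0.945), Laptm4a (0.878) and Dusp22 (0.864), and for Bcl2l11 they were Sft2d2 (0.903), Spty2d1 (0.899) and Rala (0.853). For Bcl2 they were Milr1 (0.837), Ubash3a (0.831) and Lratd2 (0.825), and for Bcl2l1 they were Cd99l2 (0.86), Rnf216 (0.836) and Snx2 (0.835). Bmf and Bcl2l11 had r = 0.731 with each other, and Bcl2 and Bcl2l1 had r = -0.338. The libraries share controls and depth within an experiment, so these values are descriptions.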

How the data were processed

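RNA from 24 samples of Cas9-LP cells was sequenced by QuantSeq 3′ mRNA-seq. Per the labels, the authors' processing used fastp, STAR and mm10; the counting tool is not given in the sources used here. The deposited values, called TPM, were CPM: each value was a whole multiple of 1 read (100% of values above 0, within 0.1 read), and every library had the same sum. One row of the deposited CPM without a gene name, worth 1 read in each library, and 1 column holding the authors' mean were left out. Groups came from the sample titles. For each experiment, limma 3.58.1 (R 4.3.3) was fitted with a trend to log2(CPM + 1) of the 4 groups, over genes with at least 1 CPM in 3 libraries, and p-values were adjusted by Benjamini-Hochberg over all of these genes. Fold changes are on this scale, which understates those of low genes. edgeR 4.0.16 (quasi-likelihood, TMM) on the recovered reads was an alternative, beside other pseudocounts, filters, scalings, fits and each library left out. The model was tested on simulated data. Intervals and floors cover counting error or library spread only. Sequences and coordinates are from RefSeq (GRCm38.p6) and GENCODE (GRCm38, the assembly of mm10). The text names all 9 members, and of the other lists the genes past the adjusted p, fold and level thresholds, up to 6 a comparison. Bnip3l, Myb, Jak1, Il7r, Foxo3 and the 6 named genes of the apoptosis machinery were named beyond that rule after their values were seen. One gene of the lists is not reported here and is left out of their counts. The members and lists were chosen with earlier results of these data known.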

Additional observations from a re-analysis of the deposited data

How the results depend on the processing

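Side of the threshold held in 1808 of 1840 refits of single members; 17 refits lost a call, 15 gained one and none reversed a call. The sign turned in 62 refits, none with a call either way. With only the 2 groups compared in the fit, 1 member passed in Phase 1 sgCbfb against sgControl, 0 in Phase 1 against LP with sgControl, 0 with sgMed12 and 4 in sgCTCF against sgCbfb. That fit also gave Bcl2 a call in sgCTCF against sgControl and took away its call in sgMed12 against sgCTCF. With the fold and level thresholds added, 1 passed in Phase 1 with sgCbfb, 0 in Phase 1 against LP with sgCbfb, 0 with sgCbfb in LPs of experiment 2, 1 in sgCTCF against sgCbfb, 0 in sgMed12 against sgCbfb and 2 in sgMed12 against sgCTCF. With no filter on low values, 0 passed with sgMed12, and Bcl2 lost its call in sgMed12 against sgCTCF. With only genes that had a mean over 10 CPM in a group, Bmf gained a call in Phase 1 sgCbfb against sgControl. With 1 library left out, the count ranged from 0 to 2 in Phase 1 against LP with sgControl, 0 to 1 in the difference between stages, 2 to 4 with sgCTCF, 0 to 1 with sgMed12 and 1 to 3 in sgMed12 against sgCbfb. Bmf gained a call in Phase 1 with sgCbfb without the first LP sgControl library. In sgCTCF against sgCbfb, Bcl2 gained one without the second sgMed12 library and Bak1 without the first sgCTCF library. In sgMed12 against sgCTCF, Bid gained one without the second sgMed12 library. There Bcl2 lost its call without any 1 of the sgCTCF libraries, or without the first or last sgMed12 library. The share of all genes that passed was not taken under these alternative fits. With the fold and level thresholds it was not taken for the perturbations set against each other. These counts therefore cannot be told from a change in how many genes passed in all. The cause of the changes was not tested. Replicate numbers were not taken to pair libraries: same-numbered libraries had correlations of -0.04 to 0.14 in experiment 1 and -0.118 to 0.185 in experiment 2, although 11 of 12 and 10 of 12 correlated best with their own number. With the replicate number as a block, 3 members passed with sgCTCF (Bak1 added, adjusted p = 0.049), and no other call changed. Depth limits Bmf and Bcl2a1b most.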

Other observations

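Bcl2l11 differed between experiments in control LPs: the sgControl libraries held 164 to 221 CPM in experiment 1 and 104 to 134 CPM in experiment 2, without overlap, while Mcl1 was 168 to 183 and 161 to 173 CPM. The tables were normalised separately and no test was made. Within experiment 1 the library numbered 1 had the highest Bcl2l11 and that numbered 3 the lowest in each of the 4 groups, and within experiment 2 the library numbered 2 was highest and that numbered 3 lowest in each of the 4 groups. This order was noticed after the values were seen, and what the replicate numbers stand for is not given in the labels.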
